A study of Mus musculus with 238 samples.

Results

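The caudate putamen, the dorsal striatum of the mouse, was compared between female C57BL/6JN mice that were dietary restricted, coded aDR in the labels, and mice fed ad libitum, coded AL. All were 19 months old and carried no other treatment that the labels name. Of the 238 libraries of the series, the 9 caudate putamen libraries of the diet experiment belong here, 5 aDR (mice 61, 62, 64, 65 and 67) and 4 AL (mice 63, 66, 68 and 69). Each library is bulk RNA of 1 mouse, so the replicates are separate animals, and each p-value measures the spread between these mice. When the restriction began and how severe it was are not given in the sources used here. The comparison asks which transcripts of the aged striatum differ with diet.

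Most neurons of the caudate putamen are inhibitory projection neurons. Those of the direct pathway carry the dopamine receptor Drd1 with the peptides Tac1 and Pdyn, and those of the indirect pathway carry Drd2 and the adenosine receptor Adora2a with the peptide Penk. Around them lie sparse cholinergic and inhibitory interneurons, astrocytes, and the oligodendrocytes of the fibre bundles that cross the region. Restricted feeding is known to alter the timing of meals, body temperature and glucocorticoid levels, and each of these has well-known target transcripts: the clock genes, the cold-inducible RNA-binding proteins, and the genes with glucocorticoid receptor sites.

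The total count per library ran from 5.80 M (aDR mouse 64) to 18.5 M (AL mouse 68). All 40 striatal projection neuron markers passed the filter on low counts, with a summed level of 18550 to 37330 CPM in the aDR and 22750 to 28630 CPM in the AL libraries (CPM, counts per M counts of the library after TMM scaling). Of 15 cortical excitatory markers 9 passed the filter. Slc17a7 was low at 0.283 to 6.51 CPM, and Neurod6 was at most at 0.986 CPM. Other members were high, with medians over the 9 libraries of 1127 CPM for Camk2a and 991 CPM for Nrgn. The whole list summed to 1806 to 3963 CPM in aDR and 2246 to 2836 CPM in AL. The library of aDR mouse 64 stood apart from the others. Its correlation with them across genes was 0.933 to 0.949, against 0.967 to 0.993 among the other 8. Its mitochondrial share was 3.46%, against 2.29 to 2.89%. Genes whose longest annotated transcript is under 1000 bases lay a median of 1.25 above the AL mean in it on the log2 scale, against -0.08 to 0.37 in the other 8 libraries. Choroid plexus markers summed to 568 CPM in aDR mouse 61, 1415 CPM in aDR mouse 62 and 557.5 CPM in AL mouse 69, and to 17.0 to 26.9 CPM in the other 6. List counts below are therefore also given without aDR mouse 64 or without mice 61, 62 and 69 where these move them. The second alternative was chosen after the data were seen, and it compares 3 with 3 mice.

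**Figure D1:**
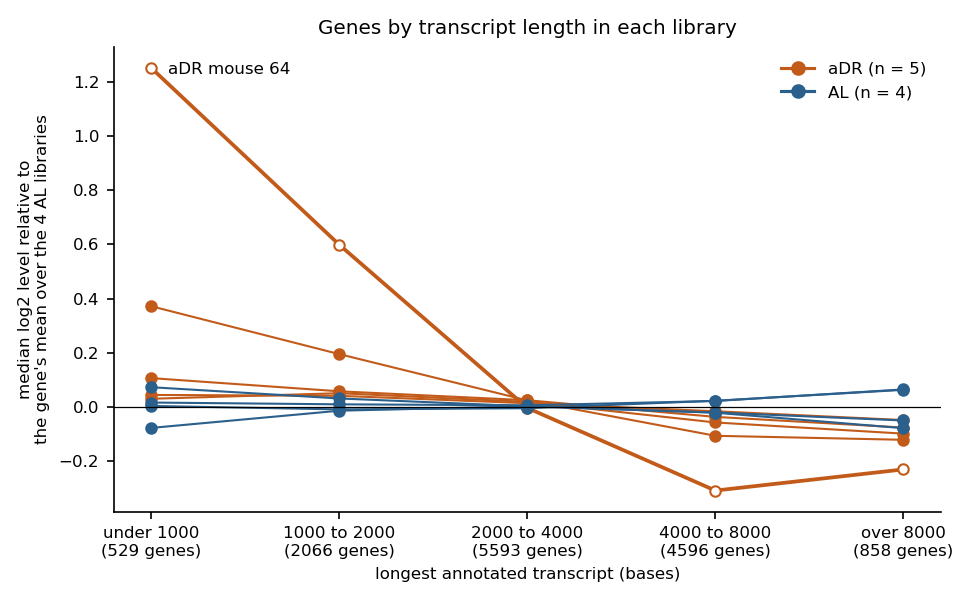
Median log2 level of genes, relative to each gene's mean over the 4 AL libraries (y axis), by length of the longest annotated transcript (x axis, bases), with 1 line per library. The line of aDR mouse 64 runs from 1.25 for the 529 shortest genes to -0.31 for genes of 4000 to 8000 bases, and the other 8 libraries stay between -0.12 and 0.37.

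Of 13695 genes tested with edgeR, 2 passed a Benjamini-Hochberg adjusted p under 0.05, 0.0146% of those tested, and both rose under aDR. They were Rbm3, which encodes an RNA-binding protein induced by mild cold, and Ciart, which encodes a repressor of the clock activators Clock and Arntl. At an unadjusted p under 0.05, 467 genes had a higher level in aDR (3.41% of those tested) and 529 a lower level (3.86%). In 622 genes (4.54%) the 5 aDR values and the 4 AL values did not overlap. The median log2 change over all genes was -0.00075. Of the genes at an unadjusted p under 0.05, 46.9% were higher, and 34.7% with library totals in place of TMM scaling. Without aDR mouse 64, Plin4 was called beside Rbm3 and Ciart, and 1633 of 13697 genes had an unadjusted p under 0.05. In that fit 5.88% of all genes were higher and 6.05% lower at that p. List counts without mouse 64 below are to be read beside these larger shares.

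The number of called genes depended on the fit. Leaving out any single mouse other than aDR mouse 64 gave 0 called genes with edgeR, with 432 to 1609 genes at an unadjusted p under 0.05. Without mice 61, 62 and 69 there were also 0, with 344 of 13484 genes at that p, 52.6% of them higher. DESeq2 called 18 genes in the 9 libraries, 14 of them higher. A fit in which all 131 brain libraries of the diet experiment shared 1 estimate of the spread called 726 genes in the same contrast, 546 higher and 180 lower. In that fit several libraries of the same mouse count as separate samples. Rbm3 and Ciart were among the called genes of both.

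The level of Rbm3 was 96.4, 100.2, 103, 89.3 and 84.6 CPM in aDR mice 61, 62, 64, 65 and 67. In AL mice 63, 66, 68 and 69 it was 56.9, 46.1, 49.6 and 52.2 CPM. The lowest aDR value lay well above the highest AL value, and mouse 64 lay close to the other aDR mice. The log2 change was 0.89 (SE 0.0989, edgeR adjusted p = 0.0386), and 0.87 without mouse 64. The adjusted p ranged from 1.66e-14 to 0.843 over the 19 alternatives, 10 of which called the gene. The antisense gene Rbm3os overlaps Rbm3 and the libraries are unstranded, so reads of the 2 genes cannot be told apart.

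The level of Ciart was 69.1, 75.0, 115, 88.1 and 81.4 CPM in the same order of aDR mice. It was 33.8, 36.4, 34.9 and 40.6 CPM in the AL mice. The groups did not overlap, and aDR mouse 64 had the highest value. The log2 change was 1.23 (SE 0.149, edgeR adjusted p = 0.0421), and 1.11 without mouse 64. The adjusted p ranged from 2.35e-14 to 0.511 over the alternatives, 10 of 19 of which called it.

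**Figure D2:**
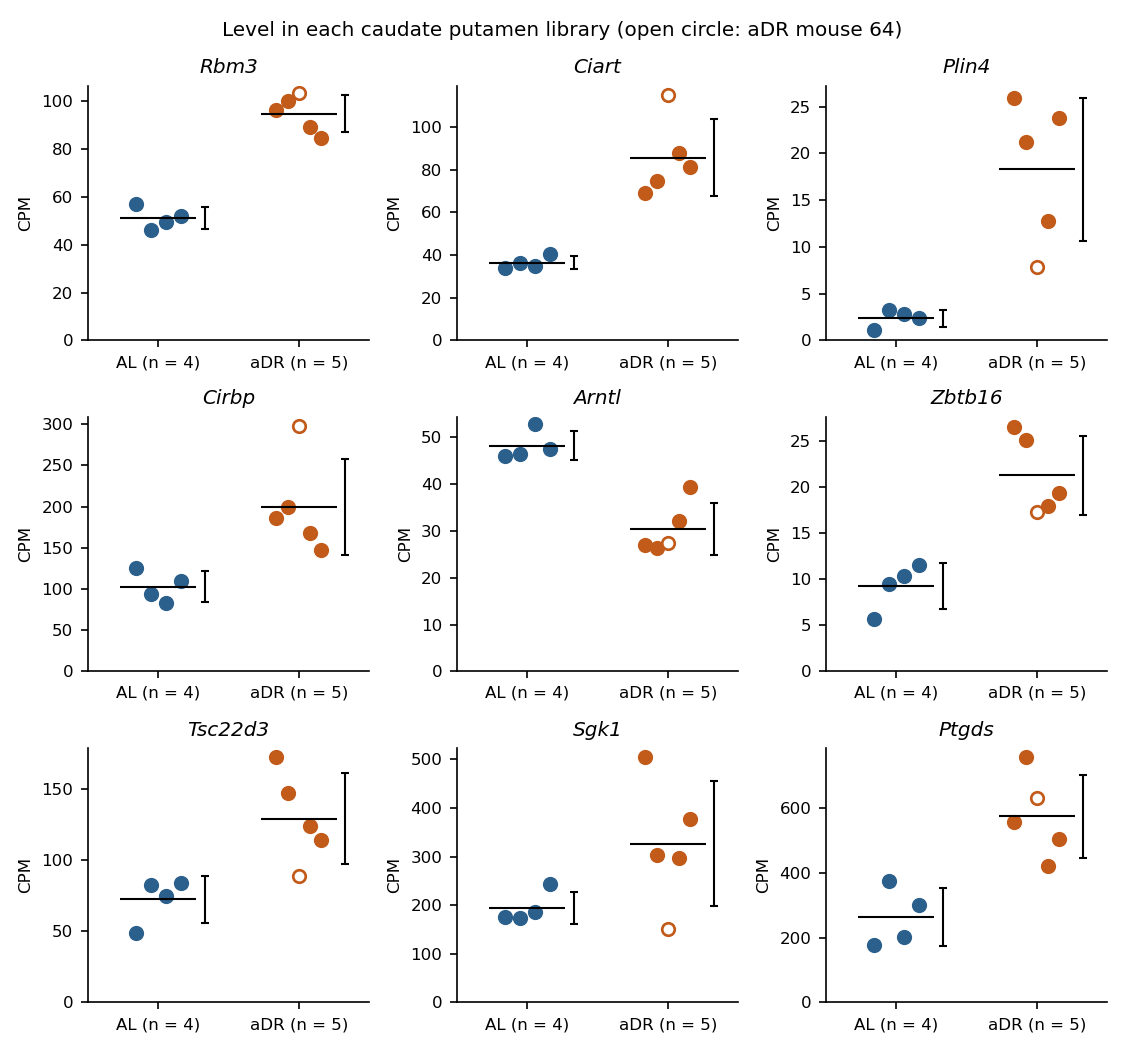
Level of 9 genes (y axis, CPM from 0) in each of the 4 AL and 5 aDR caudate putamen libraries, with the group mean as a line and the SD as an error bar. The AL and aDR points do not overlap for Rbm3, Ciart, Plin4, Cirbp, Arntl, Zbtb16, Tsc22d3 and Ptgds. For Sgk1, aDR mouse 64 (open circle) lies at 151 CPM, below all 4 AL mice.

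Clock and Arntl bind the E-box, and Ciart carries several of them just before its start, so its promoter is shown with that of Per1, another E-box gene, and that of Arntl, which the Rev-erb and Ror receptors read through their own element. The windows are RefSeq promoters of build GRCm38.p6, 250 bases before to 50 after the start, written 5′ to 3′ on the gene's strand. Capitals mark the E-box CACGTG, the D-box TTATGNAA and the core of the Ror element TAGGTCA, searched on both strands.
Ciart, chr3:95882179-95882478, minus strand: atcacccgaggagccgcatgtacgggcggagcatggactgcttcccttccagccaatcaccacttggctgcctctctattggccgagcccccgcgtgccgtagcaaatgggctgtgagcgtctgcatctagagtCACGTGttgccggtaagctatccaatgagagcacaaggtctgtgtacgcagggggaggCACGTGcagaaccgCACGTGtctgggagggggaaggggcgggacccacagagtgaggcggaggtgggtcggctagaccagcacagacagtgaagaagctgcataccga
Per1, chr11:69098699-69098998, plus strand: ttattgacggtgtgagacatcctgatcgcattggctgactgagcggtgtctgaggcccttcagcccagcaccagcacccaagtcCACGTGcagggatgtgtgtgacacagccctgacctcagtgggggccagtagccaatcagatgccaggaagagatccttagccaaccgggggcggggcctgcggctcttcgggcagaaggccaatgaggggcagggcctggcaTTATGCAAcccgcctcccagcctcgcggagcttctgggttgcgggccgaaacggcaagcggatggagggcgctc
Arntl, chr7:113207261-113207560, plus strand: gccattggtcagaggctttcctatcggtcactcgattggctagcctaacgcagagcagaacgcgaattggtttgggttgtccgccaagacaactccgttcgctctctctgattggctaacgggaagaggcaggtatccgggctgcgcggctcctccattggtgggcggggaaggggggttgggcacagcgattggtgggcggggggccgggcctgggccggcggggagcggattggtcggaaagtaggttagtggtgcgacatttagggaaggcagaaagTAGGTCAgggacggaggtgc
The Ciart window holds 3 E-boxes, at 116, 58 and 44 bases before the start. Of the 10734 tested genes with a window, 17 (0.158%) have 1 with at least 3 E-boxes. The Per1 window shown has 1 E-box 166 bases and 1 D-box 24 bases before its start. The Arntl window shown has its Ror element core from base 31 of the transcript. Per1 and Arntl each have another annotated window, not shown, which holds none of these motifs. An E-box occurs in 9.52% of the windows of tested genes, a D-box in 2.14% and the Ror element core in 1.8%. In the clock list, 7 of the 24 genes with a window hold an E-box, against 11.5% of all tested genes with a window. The 7 include Tspan4, which is not a clock component. Of the 15 genes of smallest p on the higher side, 13 have a window, and 1 of these (7.69%), Ciart, holds an E-box. These are matches of letters, not measured sites.

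Among the 30 genes of the clock list, 1 was called (Ciart), and the median log2 change was 0.07. At an unadjusted p under 0.05, 5 were higher and 2 lower. The higher ones were Ciart, Bhlhe40, Usp2, Per3 and Tspan4. Tspan4 encodes a tetraspanin and is not a clock component, but it is counted in the list. Over all genes 0.0146% were called, 3.41% were higher and 3.86% lower at that p. Without aDR mouse 64 the list had 8 higher and 2 lower, against 5.88% and 6.05% of all genes, with a median of 0.07. With mice 61, 62 and 69 left out edgeR called 0, 7 were higher and 2 lower, and the median was 0.13. The activator Arntl, the partner of Clock, had 27, 26.2, 27.4, 32.1 and 39.3 CPM in aDR and 45.9, 46.4, 52.8 and 47.4 CPM in AL. Every aDR value lay below every AL value, and aDR mouse 67 was the closest to the AL mice. Its log2 change was -0.66 (SE 0.130, adjusted p = 0.618). The related activators Npas2 (-0.37, SE 0.167) and Clock (-0.19, SE 0.107) had overlapping groups. Of the E-box-driven repressors and outputs, Bhlhe40 had a log2 change of 0.52, Per3 of 0.28, Per1 of 0.28, Per2 of 0.27, Cry1 of 0.19, Tef of 0.07 and Bhlhe41 of -0.22, and none was called. Usp2, a ubiquitin protease with a daily rhythm, had 147 to 205 CPM in aDR and 123 to 137 CPM in AL, a log2 change of 0.38 with groups that did not overlap.

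The output factor Dbp had 211, 225, 449.8, 248 and 268 CPM in aDR and 219, 206, 207 and 189.8 CPM in AL. The value of mouse 64 was far above the other 4, and the log2 change fell from 0.45 with it to 0.22 without it, both short of a call. The repressor Nr1d2 showed the opposite, with 62.5 CPM in mouse 64 against 144 to 163 CPM in the other aDR and 145 to 149 CPM in the AL mice. Its log2 change was -0.10 with mouse 64 and 0.08 without. For Nr1d1 the log2 change was 0.07 (95% interval -0.22 to 0.37). The D-box repressor Nfil3 had a log2 change of -0.38 (SE 0.157, adjusted p = 0.618). Hlf and Cry2 had log2 changes of 0.14 (SE 0.115) and 0.07 (SE 0.102).

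**Figure D3:**
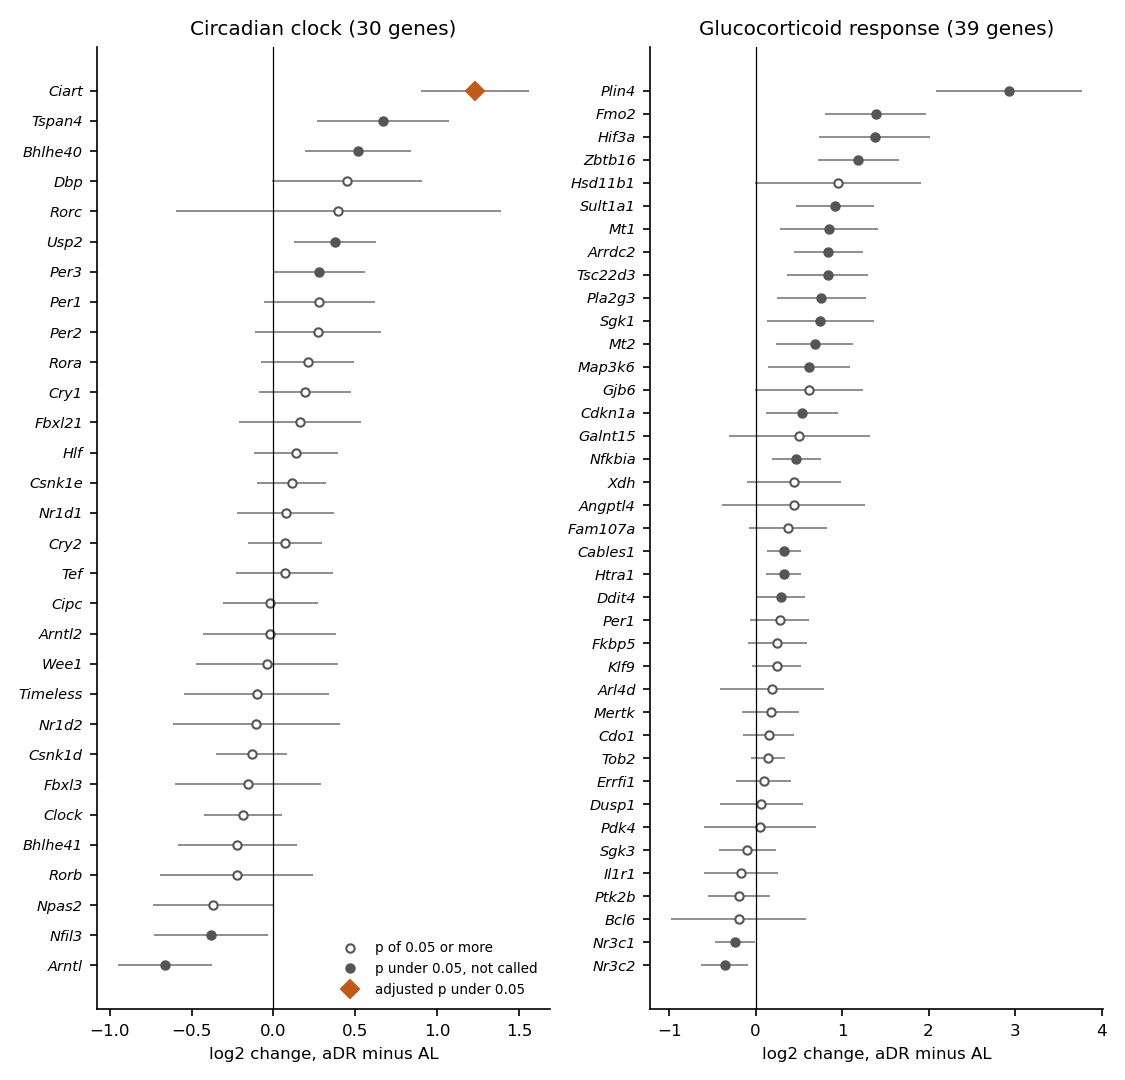
Log2 change, aDR minus AL, with its 95% interval (x axis) for the 30 genes of the clock list and 39 of the glucocorticoid response list (y axis), ordered by the change. Ciart is the gene called in these lists at an adjusted p under 0.05, and Arntl lies at the other end of the clock panel at -0.66. In the glucocorticoid panel 33 of 39 genes lie above 0.

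The glucocorticoid response list, genes known to be induced by the glucocorticoid receptor together with the receptors themselves, had 39 members tested. None was called with all 9 libraries by edgeR, and Plin4 was called without mouse 64. At an unadjusted p under 0.05, 17 were higher and 2 lower, against 3.41% and 3.86% of all genes, and 33 of 39 had a positive change. In 11 the groups did not overlap (4.54% of all genes). The median log2 change was 0.37, and 0.39 without mouse 64. Without mice 61, 62 and 69 it was 0.42, with 14 higher and 0 lower of 38 at an unadjusted p under 0.05. DESeq2 called 6 of the list in the 9 libraries, against 18 of all 13695 genes. The list was drawn up with earlier results of these data known, so its counts are a description.

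Plin4 encodes a perilipin that coats lipid droplets. It had 25.9, 21.2, 7.89, 12.7 and 23.8 CPM in aDR and 1.13, 3.20, 2.82 and 2.36 CPM in AL. Even aDR mouse 64, the lowest of its group, lay above every AL mouse. The log2 change was 2.93 (SE 0.382, adjusted p = 0.0555), and 3.11 without mouse 64 (adjusted p = 0.00493), with a range of 7.68e-11 to 0.843 over the alternatives. Zbtb16, a zinc finger transcription factor, had 17.4 to 26.6 CPM in aDR and 5.74 to 11.6 CPM in AL, a log2 change of 1.19 (SE 0.210, adjusted p = 0.487). Fmo2, a flavin monooxygenase, and Hif3a, a hypoxia-inducible factor subunit, had log2 changes of 1.39 and 1.38, each with groups that did not overlap. Hif3a was low throughout, at 2.12 to 4.35 CPM in aDR and 0.788 to 1.92 CPM in AL.

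Tsc22d3, which encodes the anti-inflammatory protein GILZ, had 173, 147, 88.8, 124 and 114 CPM in aDR and 48.6, 82.6, 74.6 and 84.3 CPM in AL. The groups did not overlap, with mouse 64 the lowest of the aDR mice, and the log2 change was 0.84 (SE 0.212, adjusted p = 0.618). Sgk1, a kinase induced by corticosteroids, had 506, 303, 151, 297 and 377 CPM in aDR and 176, 174, 185 and 244 CPM in AL. Mouse 64 was the only aDR mouse within or below the AL range, and the log2 change was 0.75 with it and 0.94 without it (unadjusted p = 0.000406). Arrdc2 (0.84), Sult1a1 (0.92), Cables1 (0.33) and Htra1 (0.32) also had groups that did not overlap. The metallothionein Mt1, which binds zinc and copper, had 473, 664, 1170, 466 and 558 CPM in aDR and 343 to 395 CPM in AL, a log2 change of 0.85 that was 0.56 without mouse 64.

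The genes of the list did not move alike. Fkbp5, a chaperone of the glucocorticoid receptor that is often read as a marker of its activity, had 64.5, 61.3, 56.2, 64.3 and 95 CPM in aDR and 60.9, 53.2, 64.6 and 51.1 CPM in AL. The groups overlapped except for aDR mouse 67, and the log2 change was 0.25 (95% interval -0.09 to 0.59). Dusp1 and Pdk4 had log2 changes of 0.07 and 0.05. The receptors lay on the other side: Nr3c1, the glucocorticoid receptor, had 86.8 to 115 CPM in aDR and 116 to 132 CPM in AL, a log2 change of -0.24, and Nr3c2, the mineralocorticoid receptor, had -0.36. Neither was called.

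One promoter of Sgk1 is shown because it holds the core of the glucocorticoid receptor element, ACANNNTGT, in capitals with 1 E-box, and is 1 of several annotated starts of this gene.
Sgk1, chr10:21993640-21993939, plus strand: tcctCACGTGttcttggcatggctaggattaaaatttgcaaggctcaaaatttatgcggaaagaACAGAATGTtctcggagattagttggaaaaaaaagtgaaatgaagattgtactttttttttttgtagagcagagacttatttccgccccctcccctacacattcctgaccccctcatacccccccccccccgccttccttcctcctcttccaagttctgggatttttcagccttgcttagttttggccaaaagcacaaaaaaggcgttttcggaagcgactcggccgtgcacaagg
The core lies 186 bases before this start. It occurs in 4.29% of the windows of tested genes. In the glucocorticoid list 5 of 30 genes with a window hold it, against 5.19% of tested genes with a window, and these were Sgk1, Mt1, Map3k6, Fam107a and Galnt15. Of the 15 genes of smallest p on the higher side, 13 have a window, and 0 of these hold the core. The windows of Plin4 and Tsc22d3 hold none of these letters, which says only that they are not within these 300 bases.

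Of 31 genes of the temperature list, cold-inducible and heat shock genes, Rbm3 was called, against 0.0146% of all genes. At an unadjusted p under 0.05, 2 were higher and 2 lower, against 3.41% and 3.86% of all genes. The list median log2 change was -0.01. Without mouse 64, 2 were higher and 4 lower, and without mice 61, 62 and 69, 2 were higher and 0 lower. Cirbp, the other cold-inducible RNA-binding protein, had 186, 199.7, 298, 168 and 147 CPM in aDR and 125, 93.7, 83.6 and 109.6 CPM in AL. The groups did not overlap and mouse 64 was the highest. The log2 change was 0.96 (SE 0.205, adjusted p = 0.618) and 0.78 without mouse 64 (adjusted p = 0.279), with a range of 1.29e-07 to 0.904 over the alternatives. The heat shock chaperone Hsph1 had a log2 change of -0.40 and its co-chaperone Chordc1 of -0.36, both with overlapping groups and an adjusted p of 0.618.

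The 15 genes of smallest p on each side had groups without overlap, against 4.54% of all genes. All 30 kept their sign and an unadjusted p under 0.05 without mouse 64, where 1633 of 13697 genes had that p. These genes were chosen by their p in the same libraries, so both counts follow largely from the choice and are a description. Apart from Rbm3 and Ciart, their adjusted p ran from 0.0555 to 0.618. On the higher side, 6 of the 15 were members of the glucocorticoid list, which holds 39 of the 13695 tested genes. That list was drawn up with earlier results of these data known, so this count too is a description. Ptgds, the prostaglandin D synthase of meninges and oligodendrocytes, had 557, 755, 631, 420.0 and 502 CPM in aDR and 178, 374, 201 and 299.5 CPM in AL, a log2 change of 1.12 (SE 0.241). The summed level of the meningeal fibroblast list, of which Ptgds is the main part, ran from 446 to 805 CPM in aDR and from 201 to 399 CPM in AL, and 6 of its 8 tested members were higher. Without mice 61, 62 and 69 the median log2 change of the list was -0.00011, and that of Ptgds itself was 1.04. The part of meningeal tissue in the result was not tested. Id3, an inhibitor of helix-loop-helix factors, had 97.4 to 187 CPM in aDR and 60.4 to 85.9 CPM in AL (log2 change 0.85). Ada, adenosine deaminase, had 1.38 to 3.01 CPM in aDR and 0.45 to 1.10 CPM in AL (1.49). Sord, sorbitol dehydrogenase, had 26.9 to 32.4 CPM in aDR and 20.7 to 24.6 CPM in AL (0.41).

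On the lower side, log2 changes ran from -0.72 to -0.34. Sorl1, a sorting receptor, had 89.5, 88.5, 93.7, 96.5 and 96.6 CPM in aDR and 155, 115, 138 and 111 CPM in AL. Each aDR value was below each AL value, and the log2 change was -0.48 (SE 0.111), with an edgeR adjusted p of 0.618. The ion channel genes Scn3a (-0.44) and Kcna3 (-0.62), the vesicle gene Syt9 (-0.47), the adhesion gene Cntn4 (-0.55), Hif1an, an inhibitor of hypoxia-inducible factor (-0.41), and Prex1 (-0.34) were among the others. The median transcript of the 15 lower genes was 6194 bases and that of the 15 higher genes 2352 bases, against 3484.5 for all tested genes. The same held of all genes at an unadjusted p under 0.05, with 5402 bases on the lower and 1984 on the higher side. The part of transcript length in these changes was not tested.

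None of the 40 striatal projection neuron genes was called by edgeR or by DESeq2 in the 9 libraries. At an unadjusted p under 0.05, 1 was higher and 2 lower, against 3.41% and 3.86% of all genes. Of the list, 29 of 40 had a negative change, and the median log2 change was -0.10. Without mouse 64, 0 were higher and 4 lower, with a median of -0.19. The sign of this median depended on which mice were in the fit. The median of the list relative to the AL mean was -0.49 in both aDR mouse 61 and aDR mouse 62, 0.22 in mouse 64, -0.07 in mouse 65 and 0.10 in mouse 67, and it ran from -0.14 to 0.17 in AL. Oligodendrocyte markers summed to 29170 and 29620 CPM in mice 61 and 62, against 16040 to 26420 CPM in the other aDR and 11800 to 29880 CPM in the AL mice. Pallidal, septal and thalamic markers were at 791 and 787.5 CPM in mice 61 and 62, against 391 to 724 CPM in the other 7. Without mice 61, 62 and 69 the list median was 0.04, with 22 of 40 genes higher. In bulk tissue, fewer cells of a type and less RNA per cell cannot be told apart.

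The genes that define the projection neuron pathways are given for that role, chosen after their values were seen. In aDR mice 61, 62, 64, 65 and 67, Drd1 was at 127, 115, 191, 168 and 199.6 CPM, and in the AL mice at 234.5, 112, 309 and 156.5 CPM. The AL mice spanned the whole aDR range, and the log2 change was -0.34 (95% interval -0.96 to 0.27). Drd2 was at 263, 274.5, 578, 421 and 482 CPM in aDR and 483, 443, 523 and 396 CPM in AL, with mice 61 and 62 the lowest (log2 change -0.19, interval -0.69 to 0.31). Adora2a followed the same order, with 325 CPM in both mice 61 and 62 and 780.2 CPM in mouse 64 (-0.08, interval -0.61 to 0.45). For Penk the aDR values were 2655 to 7146 CPM, the highest in mouse 64, and the AL values 2770 to 3979 CPM (0.24, and -0.08 without mouse 64). Tac1 had a log2 change of 0.22 (0.01 without mouse 64) and Pdyn of -0.21 (interval -0.61 to 0.19). Ppp1r1b, the dopamine-regulated phosphatase inhibitor of these neurons, was at 7985 CPM in mouse 64 against 2265 to 3563 CPM in the other 8, with a log2 change of 0.43 that was -0.01 without mouse 64.

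Of 39 dopamine, adenosine, opioid and cannabinoid signalling genes, 0 were called by edgeR or DESeq2, and the median log2 change was -0.13. At an unadjusted p under 0.05, 0 were higher and 5 lower, against 3.41% and 3.86% of all genes. Without mouse 64, 1 was higher and 4 lower, with a median of -0.19. The phosphodiesterase Pde4b (-0.24), the olfactory-type G protein Gnal that couples Drd1 to adenylyl cyclase (-0.34), the glutamate receptor Grm5 (-0.38) and the serotonin receptor Htr2c (-0.41) were among these, all with overlapping groups. Without mice 61, 62 and 69 none of 39 had an unadjusted p under 0.05 and the median was -0.05. In that fit 344 of all 13484 genes had that p. Of 22 interneuron genes 0 were called by edgeR or DESeq2. The peptide Sst had 214, 259, 340.1, 146 and 162 CPM in aDR and 165, 138, 136 and 144 CPM in AL, a log2 change of 0.62 (SE 0.227, adjusted p = 0.618). Its 3 high values were in mice 61, 62 and 64, and mice 65 and 67 overlapped with AL. Npy had its highest value in mouse 64 (175 CPM against 65.1 to 100.1 CPM elsewhere).

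Among 38 genes of fasting and fuel metabolism, edgeR called 0 and DESeq2 called 1, against 18 of all 13695 genes with DESeq2. At an unadjusted p under 0.05, 5 were higher and 2 lower, against 3.41% and 3.86% of all genes. The median log2 change of the list was 0.13. Without mouse 64, edgeR called 1, 7 were higher and 3 lower, and the median was 0.17. The median was 0.02 without mice 61, 62 and 69, with 1 higher and 1 lower. Besides Plin4 the list held Pdk2, a kinase that restrains pyruvate dehydrogenase (128 to 143 CPM in aDR, 107 to 125 CPM in AL, log2 change 0.25), and the fatty acid carrier Fabp5. Fabp5 had 156 CPM in mouse 64 and 62.5 to 84.4 CPM in the other aDR mice, against 53.4 to 56.1 CPM in AL. Its groups did not overlap, and the log2 change was 0.69, or 0.40 without mouse 64. The neuronal glucose transporter Slc2a3 had a log2 change of -0.30 with overlapping groups. In the insulin, IGF, FoxO and mTOR list, 0 of 42 were called by edgeR or DESeq2, and the median was 0.02. At an unadjusted p under 0.05, 4 were higher and 3 lower, against 3.41% and 3.86% of all genes. These counts were 5 and 5 without mouse 64, and 1 and 0 without mice 61, 62 and 69. Klf15, a fasting-induced transcription factor, had 42.8 to 60.3 CPM in aDR and 36.6 to 41.3 CPM in AL (0.39), and Tsc2, which restrains mTOR, had 76.1 to 107 CPM in aDR and 112 to 128 CPM in AL (-0.35).

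Among 25 serine and one-carbon genes 0 were called by edgeR or DESeq2. At an unadjusted p under 0.05, 4 were higher and 2 lower, against 3.41% and 3.86% of all genes. The list median was 0.13. Without mouse 64, 6 were higher and 2 lower, and without mice 61, 62 and 69, 0 were higher and 0 lower, with a median of 0.10. The mitochondrial folate enzyme Mthfd1l had 10.8 to 13.2 CPM in aDR and 6.64 to 9.32 CPM in AL (log2 change 0.50), and its neighbour in the pathway, Aldh1l2, had 2.96 to 4.67 CPM in aDR and 4.73 to 7.79 CPM in AL (-0.65). Etnppl, an astrocyte enzyme of phosphoethanolamine breakdown, had 89.6, 75.8, 14.8, 66 and 75.5 CPM in aDR and 11.1, 44.9, 16 and 24.9 CPM in AL. Mouse 64 lay within the AL range and the other 4 aDR mice above it, with a log2 change of 1.42 (SE 0.493) and 1.67 without mouse 64 (unadjusted p = 0.000671). Of 25 cholesterol synthesis genes 0 were called by edgeR or DESeq2 and 0 had an unadjusted p under 0.05. Their median log2 change was -0.0036, and it was -0.08 without mice 61, 62 and 69. Without mouse 64, 2 were lower at that p.

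Of 27 immediate early genes 0 were called by edgeR or DESeq2. Homer1, a synaptic scaffold, was the member with an unadjusted p under 0.05, at 149 to 238 CPM in aDR and 244 to 292 CPM in AL (log2 change -0.49). The list median was -0.15. Without mouse 64 it was -0.21, with 3 lower at that p, and without mice 61, 62 and 69 it was 0.09, with 1 higher. Of 31 complement, MHC class I and interferon genes, 26 had a positive change, 0 were called by edgeR or DESeq2 and 0 had an unadjusted p under 0.05. The median was 0.23, and it ran from 0.08 to 0.38 over the alternatives. Without mouse 64, 30 of 31 were positive and 3 had an unadjusted p under 0.05. C4b was at 54.4 CPM in mouse 64 and 196 to 236 CPM in the other aDR mice, and at 81.6, 256, 108 and 269.5 CPM in AL. The AL mice split as widely as the aDR mice, and the log2 change was 0.01 (95% interval -0.96 to 0.99).

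Nuclear-encoded subunits of the respiratory chain had the highest median of the 14 pathway lists, 0.46, with 38 of 40 positive, 12 at an unadjusted p under 0.05 and 20 without overlap of the groups. Over all genes 3.41% were higher at that p and 4.54% did not overlap. None was called by edgeR or DESeq2. Their summed level was 24240 CPM in mouse 64, 12130 to 14040 CPM in the other aDR mice, and 10990 to 11420 CPM in AL. Without mouse 64 the median was 0.20, with 40 of 40 positive and 27 at an unadjusted p under 0.05. In that fit 5.88% of all genes were higher at that p. The list median was 0.595 without mice 61, 62 and 69, with 38 of 40 positive and 2 at that p. The median transcript of this list is 1297.5 bases. Over all genes, those with transcripts of 1000 to 2000 bases had a median log2 change of 0.21 (0.09 without mouse 64), and those under 1000 bases 0.44 (0.15 without mouse 64). The part of transcript length in the result was not tested. Near-identical pseudogenes of such short genes can share reads, which makes single members uncertain. Of the 13 mitochondrial-genome genes, all had a positive change over the 9 libraries, none was called by edgeR or DESeq2, 0 had an unadjusted p under 0.05, and the median was 0.28, or 0.11 without mouse 64.

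**Figure D4:**
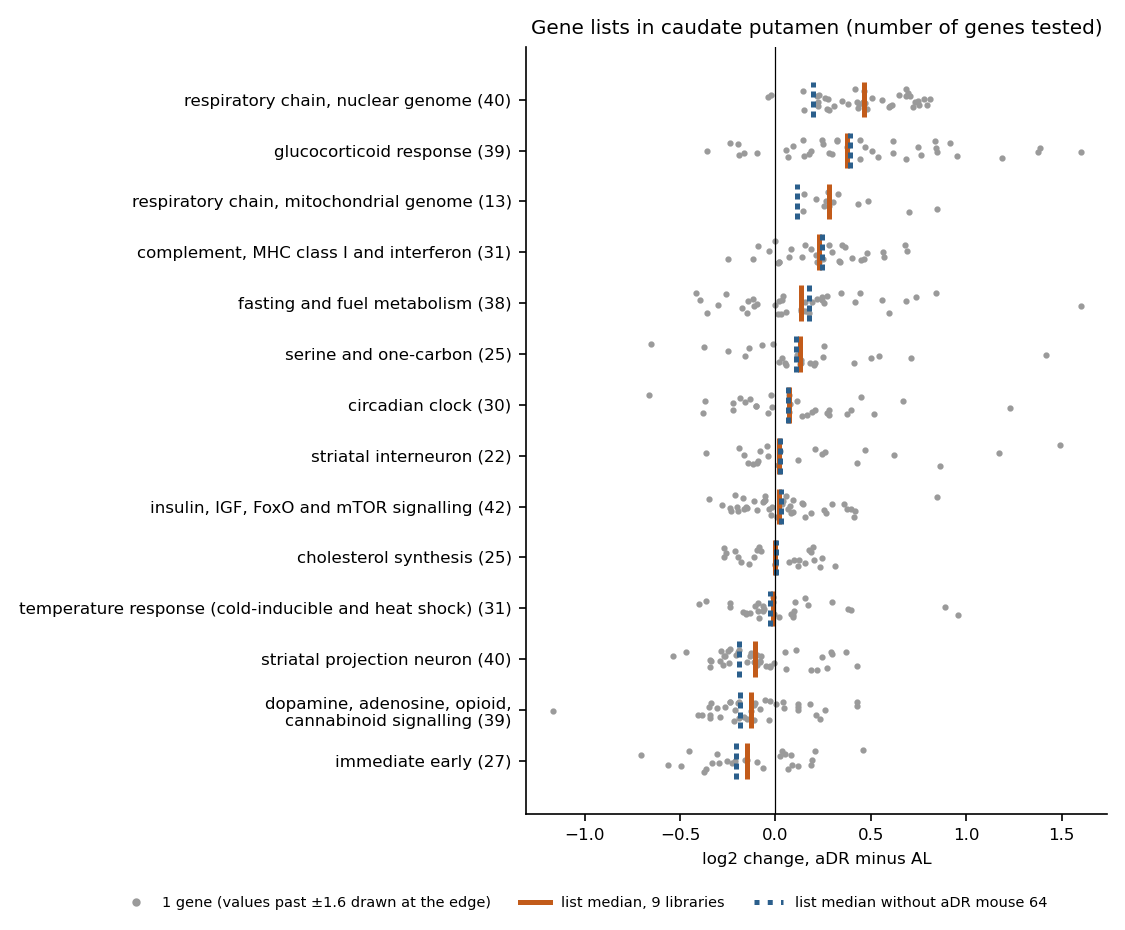
Log2 change, aDR minus AL, of each gene of 14 lists (x axis; 1 grey point per gene, values past 1.6 drawn at the edge), with the list median over the 9 libraries (solid line) and without aDR mouse 64 (dotted line). The median of the nuclear respiratory genes moves from 0.46 to 0.20 and that of the glucocorticoid response from 0.37 to 0.39.

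Among the marker lists of other cell types edgeR called 0 genes and DESeq2 called 1, Ptgds. The median log2 change was 0.92 for the choroid plexus (4 genes) and 0.92 for the ependymal list (6 genes), whose high libraries are named above, and 1.04 for the blood list (4 genes), which was 0.14 without mouse 64 (3 genes). Oligodendrocyte markers had 14 genes with a median log2 change of 0.11, and astrocyte markers 16 genes with a median of 0.05. Without mouse 64 these were 0.22 and 0.13, and without mice 61, 62 and 69 they were -0.05 and 0.03. Microglial markers summed to 1066 to 1149 CPM in aDR and 876 to 1208 CPM in AL, with a median log2 change of 0.10, and 0.19 without mice 61, 62 and 69. Of 14 endothelial markers 1 was higher and 3 lower at an unadjusted p under 0.05, against 3.41% and 3.86% of all genes. Without mouse 64, 0 were higher and 3 lower, and without mice 61, 62 and 69, 0 were higher and 0 lower. Kdr, the main receptor for vascular endothelial growth factor, had 9.19, 10.3, 10.1, 10.7 and 4.65 CPM in aDR and 9.57, 16.6, 16.1 and 16.5 CPM in AL. AL mouse 63 lay among the aDR mice, and the log2 change was -0.73 (SE 0.248, adjusted p = 0.618). Fabp7, a fatty acid carrier of astrocytes and progenitors, had 4.58 to 7.22 CPM in aDR and 7.14 to 8.56 CPM in AL (-0.39). The haemoglobin gene Hba-a1 was at 16.6 CPM in mouse 64 and had a median of 0.991 CPM over all 9 libraries.

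The diet effect in caudate putamen was compared with that in 2 neighbours, the motor cortex above it and the subventricular zone (SVZ) beside it, and with the mean of the other 14 brain regions, all from the same mice. Against motor cortex, 0 of 14209 genes differed with edgeR (0% called), with 678 at an unadjusted p under 0.05, and DESeq2 called 0. Against SVZ, 0 of 14498 genes differed with edgeR (0% called), with 327 at an unadjusted p under 0.05, and DESeq2 called 0. A replicate block on the mouse gave 0 in each, with 901 and 433 genes at an unadjusted p under 0.05. DESeq2 had 724 and 371 at that p. For Rbm3 the difference from SVZ was 0.01 (95% interval -0.29 to 0.31) and from motor cortex 0.18 (-0.07 to 0.44). For Plin4 the intervals were wider, -0.92 to 1.73 against motor cortex and -0.58 to 1.47 against SVZ.

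Against the mean of the other 14 regions, 156 of 15616 genes differed (0.999% called), 143 with a larger and 13 with a smaller value in caudate putamen. The fit with the mouse as a replicate block called 0 with edgeR, the smallest adjusted p was 0.0620 and 2261 genes had an unadjusted p under 0.05. Without mouse 64, 0 were called with edgeR, with 845 at an unadjusted p under 0.05, and 44 of the 156 were among these. The median transcript of the 143 was 981.5 bases, against 3367 for all genes tested, and 13 of them were nuclear respiratory chain genes. Ribosomal protein genes such as Rps15, Rpl36 and Rplp1 were also among them. The difference of Slc17a6, a glutamate transporter of thalamic neurons, was 5.19, but its median over the 9 libraries was 0.472 CPM and its highest value 36.1 CPM. Mouse 64 had 0 CPM, and without it the difference was 5.40 (edgeR adjusted p = 0.139). The pallidal, septal and thalamic list, which holds Slc17a6, summed to 791 and 787.5 CPM in aDR mice 61 and 62, against 391 to 724 CPM elsewhere. The part of these libraries in the difference was not tested.

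Ciart was 1 of the 156. Its log2 change was 1.23 (SE 0.149) in caudate putamen, 1.17 (SE 0.124, 4 aDR and 3 AL mice) in corpus callosum, 1.07 (SE 0.0881) in olfactory bulb, 0.86 (SE 0.0786) in SVZ and 0.83 (SE 0.0879) in motor cortex, and 0.31 (SE 0.0956) in medulla, the lowest. Caudate putamen and corpus callosum did not differ beyond their standard errors. The difference of caudate putamen from the mean of the other regions was 0.49 (SE 0.117, adjusted p = 0.0394). With the replicate block it was 0.49 (adjusted p = 0.0620), and without mouse 64 it was 0.35 (adjusted p = 0.646). Arntl had its most negative change of the 15 regions in caudate putamen (-0.66), with a difference from the others of -0.36 (SE 0.122, adjusted p = 0.114). Plin4 and Cirbp had their highest change there, with differences of 0.81 (95% interval -0.08 to 1.70) and 0.33 (0.08 to 0.59) that were not called. Fkbp5 had its lowest change of the 15 regions in caudate putamen (0.25, against 0.30 to 1.12 elsewhere), with a difference of -0.37 (-0.80 to 0.06) that was not called. The libraries of several regions come from the same mice, and the fit without the block treats them as independent.

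**Figure D5:**
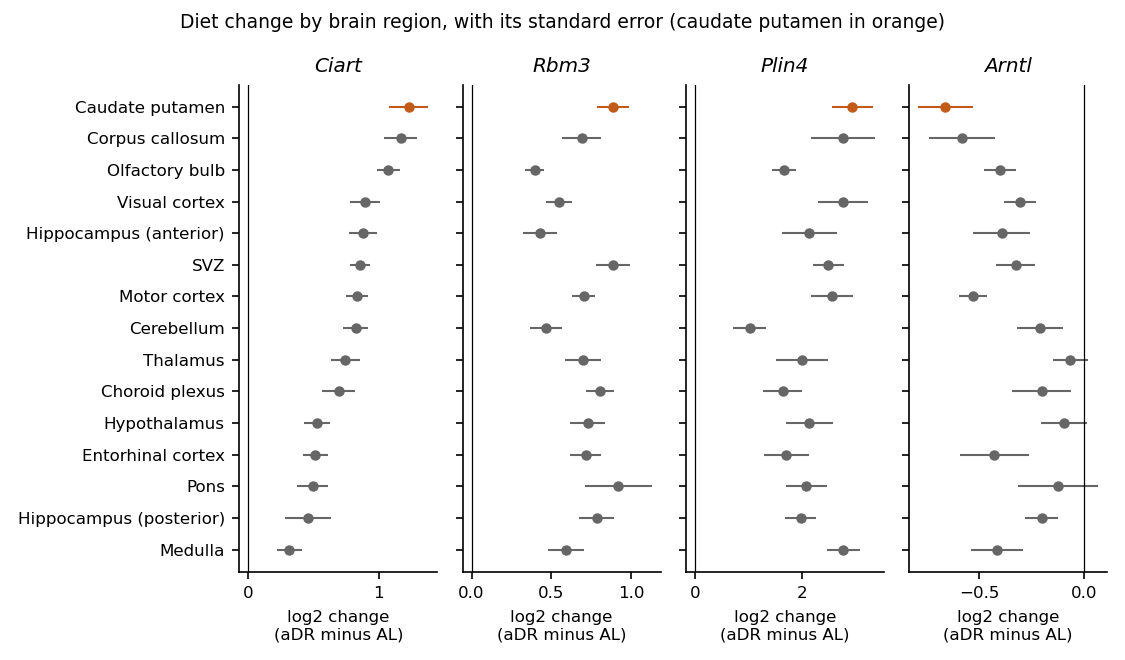
Log2 change, aDR minus AL (x axis), with its standard error, of Ciart, Rbm3, Plin4 and Arntl in 15 brain regions (y axis, ordered by Ciart). Ciart runs from 0.31 in medulla to 1.23 in caudate putamen (orange), and Rbm3 is positive in every region.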

How the data were processed

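The deposited table holds counts of reads per gene, made by the authors, for 21076 genes in 238 libraries, of which 537 genes have no count in any library. Per the labels' protocols, RNA of homogenized tissue was made into Smart-Seq2 cDNA and Nextera XT libraries, unstranded. The submitters' processing notes name Trim Galore 0.3.7, STAR 2.5.3a, DESeq2 and GRCm38; the counting program and annotation are not given in the sources used here. Groups and mouse numbers come from the labels.

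Low genes were removed by edgeR's filter (count floor 10 per library, 15 in total); the rest were scaled by TMM and tested with edgeR 4.0.16's quasi-likelihood test (R 4.3.3, Benjamini-Hochberg adjusted p under 0.05), aDR against AL over the 9 libraries. The method was tested on simulated data. Differences between regions were interaction contrasts; libraries with 1 mouse number come from the same animal, per the labels, and their deviations correlated at a mean of 0.264 between caudate putamen and SVZ, 0.0641 with motor cortex and 0.0509 with the other regions. Alternatives were DESeq2 1.42.0, limma 3.58.1 voom, other scalings and filters, shared spread, the replicate block and leaving out mice.

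Genes named are those called, the 15 of smallest p on each side with a mean of at least 1 CPM, the 4 of smallest p of each pathway list, clock and glucocorticoid members, the 3 highest of each marker list, genes of an earlier reading of these data and those called between regions. Markers named beside them were picked for their role. The comparison and lists were chosen with earlier results of these data known. No pair of libraries of 1 diet group agreed within sampling noise. A few genes that this rule names are not reported here.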

Additional observations from a re-analysis of the deposited data

Results flagged for a closer look

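In 80 groups of 4 or 5 libraries examined for a value far from the rest of its group, 11 such values were found (13.8%). The rule flags about 1 in 20 groups by chance where the groups are independent. Here the same 9 libraries recur under related measures, so the share cannot be set against that rate and is a description. Of these, 5 belong to aDR mouse 64. Its TMM factor was 0.874 (other aDR mice 0.994 to 1.04) and its score on the first principal component was 74.4 (others -21.1 to 2.72). Its level of C4b, a complement component, was 54.4 CPM (others 196 to 236 CPM). Relative to the mean of the AL mice, its median log2 level was 0.95 for the mitochondrial-genome respiratory genes (others -0.08 to 0.21) and 1.23 for the nuclear ones (others 0.11 to 0.39).

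In aDR mouse 67, Fkbp5 stood at 95 CPM (others 56.2 to 64.5 CPM) and Kdr at 4.65 CPM (others 9.19 to 10.7 CPM). In AL mouse 63, Kdr stood at 9.57 CPM (others 16.1 to 16.6 CPM). The microglial list had a median log2 deviation of 0.041 in aDR mouse 61 (others 0.11 to 0.13). In AL mouse 69 the choroid plexus list stood at 2.17 (others -0.91 to -0.49) and the ependymal list at 1.13 (others -0.35 to -0.25).

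The diet effect differed between caudate putamen and the mean of the other brain regions in 156 genes by edgeR's interaction contrast. For Ciart the difference was 0.49, and 0.35 without mouse 64 (edgeR adjusted p = 0.646). Its 5 aDR values in caudate putamen all lay above the 4 AL values, which does not bear on a difference between regions. No gene was called in the interaction contrast with the mouse as a replicate block, or without mouse 64.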

How the results depend on the processing

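Rbm3 and Ciart kept their direction in all 19 alternatives, and 10 of them called each. The count of called genes was 2; it was 18 with DESeq2, 726 when all brain libraries shared the spread, 0 without the 3 libraries with choroid plexus markers (an alternative chosen after seeing the data), and 0 to 3 as single mice were left out. Within caudate putamen no paired analysis was possible because aDR and AL mice have different numbers. Against the mean of the other regions the count was 156; it was 0 with the replicate block, 251 with RLE size factors, 0 with no filter on low counts, 450 with DESeq2, and 0 to 1331 as single mice were left out, with 394, 641 and 1331 without aDR mice 61, 65 and 67, and 0 or 1 without mouse 64 or any AL mouse. Against motor cortex and SVZ the count was 0 in every alternative run. The causes were not tested.

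Some uncalled changes turned their sign. Without the 3 libraries, the log2 change was 0.14 for Adora2a, 0.029 for Drd2 and -0.014 for Slc17a7. It was -0.012 for C4b and -0.018 for Slc17a7 with library totals only. Slc17a7 was at -0.35 with voom, -0.026 when 16 caudate putamen libraries shared the spread and -0.10 when all brain libraries did. As single mice were left out, the log2 change ran from -0.32 to 0.030 for Adora2a, -0.23 to 0.28 for C4b, -0.096 to 0.24 for Dusp1, -0.0017 to 0.14 for Nr1d1, -0.18 to 0.083 for Nr1d2, -0.099 to 0.23 for Pdk4, -0.34 to 0.032 for Pdyn, -0.083 to 0.35 for Penk, -0.0077 to 0.57 for Ppp1r1b, -0.0029 to 0.14 for Tef and -0.82 to 0.55 for Slc17a7. Genes near the filter, such as Slc17a7, rest on few counts, and a library of 5.80 M counts limits them most.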
